A study of Mus musculus with 12 samples.

Results

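Sterols and fatty acids are made and handled by a set of enzymes, regulators, and transporters, and 41 genes of this set were followed here in eosinophils of the mouse small intestine (SI). The members were taken by gene symbol from the table of normalized counts, which holds 36047 genes, and all 41 were found and had a mean normalized count above 10. They comprised 8 enzymes of the mevalonate and isoprenoid pathway, 12 enzymes from squalene to cholesterol, 5 SREBP factors and regulators, 5 LXR receptors and targets, 4 genes of intracellular sterol transport and storage, and 7 fatty acid enzymes. The first 2 groups are together called the 20 sterol synthesis enzymes. RNA was sequenced from 3 sorted subsets, named by the integrin α4β7 and the lectin CD22 on their surface: α4β7+, α4β7− CD22−, and CD22+ eosinophils. The sort kept CD11b+ SiglecF+ cells and left out cells with Ly6G or MHC class II. The study used the subsets as approximately younger, intermediate, and older cells of the proximal SI. Each subset had 4 libraries, and each library came from the pooled cells of 2 wild-type C57BL/6J mice kept on standard chow, without any treatment. The labels give the mice as female, whereas the study's methods name both sexes for its experiments. The age of the mice was between 6 and 12 weeks, a range given for all experiments and not for these libraries alone.

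Cholesterol is built from acetyl-CoA through mevalonate, isoprenoid units, squalene, and a long series of sterol intermediates. When sterols in the endoplasmic reticulum are scarce, Scap carries the SREBP factors to the Golgi, where they are cut to release transcription factors that act on genes of sterol and fatty acid synthesis, whereas Insig proteins hold the complex back when sterols are plentiful. The LXR nuclear receptors respond to oxidized sterols and act in the other direction, on genes of sterol efflux and of reduced uptake.

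The eosinophil genes Siglecf, Ccr3, and Alox15 were abundant in all 12 libraries, with Siglecf between 6884 and 8594 normalized counts. Of 6 eosinophil genes, 3 were called lower in α4β7− CD22− and 5 in CD22+ than in α4β7+ eosinophils, the granule gene Prg2 with log2 fold changes of −0.92 and −1.73, while Siglecf was not called. The part of this shift in the results on the members was not tested. Of the genes for the sorted surface proteins, Itgb7 lay between 1838 and 3058 in α4β7+ libraries and between 98.7 and 304 in the others, and Cd22 rose from 987 to 1364 in α4β7+ over 3693 to 5819 in α4β7− CD22− to 11553 to 14766 in CD22+ libraries. Genes of other cells were also present. Of 16 epithelial markers 15 were found, and Cdh17, a cadherin of epithelium, was called higher in both other subsets than in α4β7+ eosinophils, with log2 fold changes of 1.83 and 2.37. It was set aside after its values were seen. Cdh17 lay between 1200 and 1598 in α4β7+, 4595 and 5351 in α4β7− CD22−, and 6586 and 7871 in CD22+ libraries. Which cells its RNA came from was not tested. The sum of the remaining 14 lay between 4684 and 10499 in α4β7+, 3382 and 7195 in α4β7− CD22−, and 2195 and 11579 in CD22+ libraries, and with limma none of the 14 was called between subsets, nor did any have an unadjusted p under 0.05, in the 3 comparisons. Jchain of plasma cells lay between 2305 and 7156. The sum of 6 mast cell genes lay between 57.6 and 180.0 over all libraries, most of it from Kit (53.3 to 178), while Tpsb2 was at 0. The sum of 6 neutrophil genes lay between 30.1 and 107 in α4β7+, 25.2 and 43.4 in α4β7− CD22−, and 7.9 and 12.7 in CD22+ libraries, most of it from Mmp8 and S100a9, while Elane, a gene of neutrophil precursors, was at 0. The part of these other cells in the results was not tested, except where values without them are given below. The libraries held totals of 14286474 to 16915755 normalized counts, and a floor of 3 reads corresponded to between 2.56 and 3.48 normalized counts. Such floors cover counting error only.

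Of the 20 sterol synthesis enzymes, 13 were called higher (by 1.5-fold or more at an adjusted p of at most 0.05, with limma) in α4β7− CD22− and 15 in CD22+ than in α4β7+ eosinophils, where 3.70% and 5.60% of all genes tested were. Acat2, Ggps1, Ebp, Sc5d, and Lbr were called in neither comparison. Idi1, which converts isopentenyl pyrophosphate to its isomer, was 3.64-fold higher in α4β7− CD22− and 4.52-fold higher in CD22+ than in α4β7+ eosinophils. Several regulators and carriers rose with the enzymes, namely Srebf2, Insig1, Stard4, and Soat1, as did the fatty acid enzymes Fasn and Scd2. The LXR targets Mylip and Abca1 were lower in CD22+ than in α4β7+ eosinophils. Because the RNA came from bulk sorted cells, fewer cells of a type and less RNA per cell cannot be told apart.

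Log2(normalized count + 1) was compared with limma, and a gene was called when it changed by 1.5-fold or more and its p, adjusted by Benjamini-Hochberg, did not exceed 0.05. Fold changes are on this scale, which understates the change of low genes. Of the 41 members, 19 were called higher in α4β7− CD22− than in α4β7+ eosinophils, against 3.70% of the 15249 genes tested, and 0 were called lower, against 4.35%. At an unadjusted p under 0.05, 2 members were lower. In CD22+ against α4β7+ eosinophils, 21 members were called higher and 2 lower, where the shares of all genes tested were 5.60% and 6.39%. Between CD22+ and α4β7− CD22− eosinophils 0 members were called higher and 1 was called lower, against 0.210% and 0.393% of all genes. At an unadjusted p under 0.05, limma gave 4 members higher and 3 lower in this last comparison. The shares of all genes at an unadjusted p under 0.05 were not counted, here or below. The median log2 fold change of the 41 members was 0.48 in α4β7− CD22− and 0.59 in CD22+ against α4β7+ eosinophils, and 0.24 in CD22+ against α4β7− CD22− eosinophils, whereas the medians over all genes tested were 0.003, 0.014, and −0.001. When library totals were set equal without ribosomal protein genes, the calls over all genes went from 564 higher and 664 lower to 782 and 515 in α4β7− CD22− eosinophils and from 854 and 975 to 1448 and 701 in CD22+ eosinophils, while 20 and 23 members were then called higher and 0 and 2 lower. The study itself drew attention to cholesterol synthesis genes in these libraries, so the counts are not independent evidence of their direction. The p-values measure the spread between libraries, each of which pooled 2 mice.

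**Figure D1:**
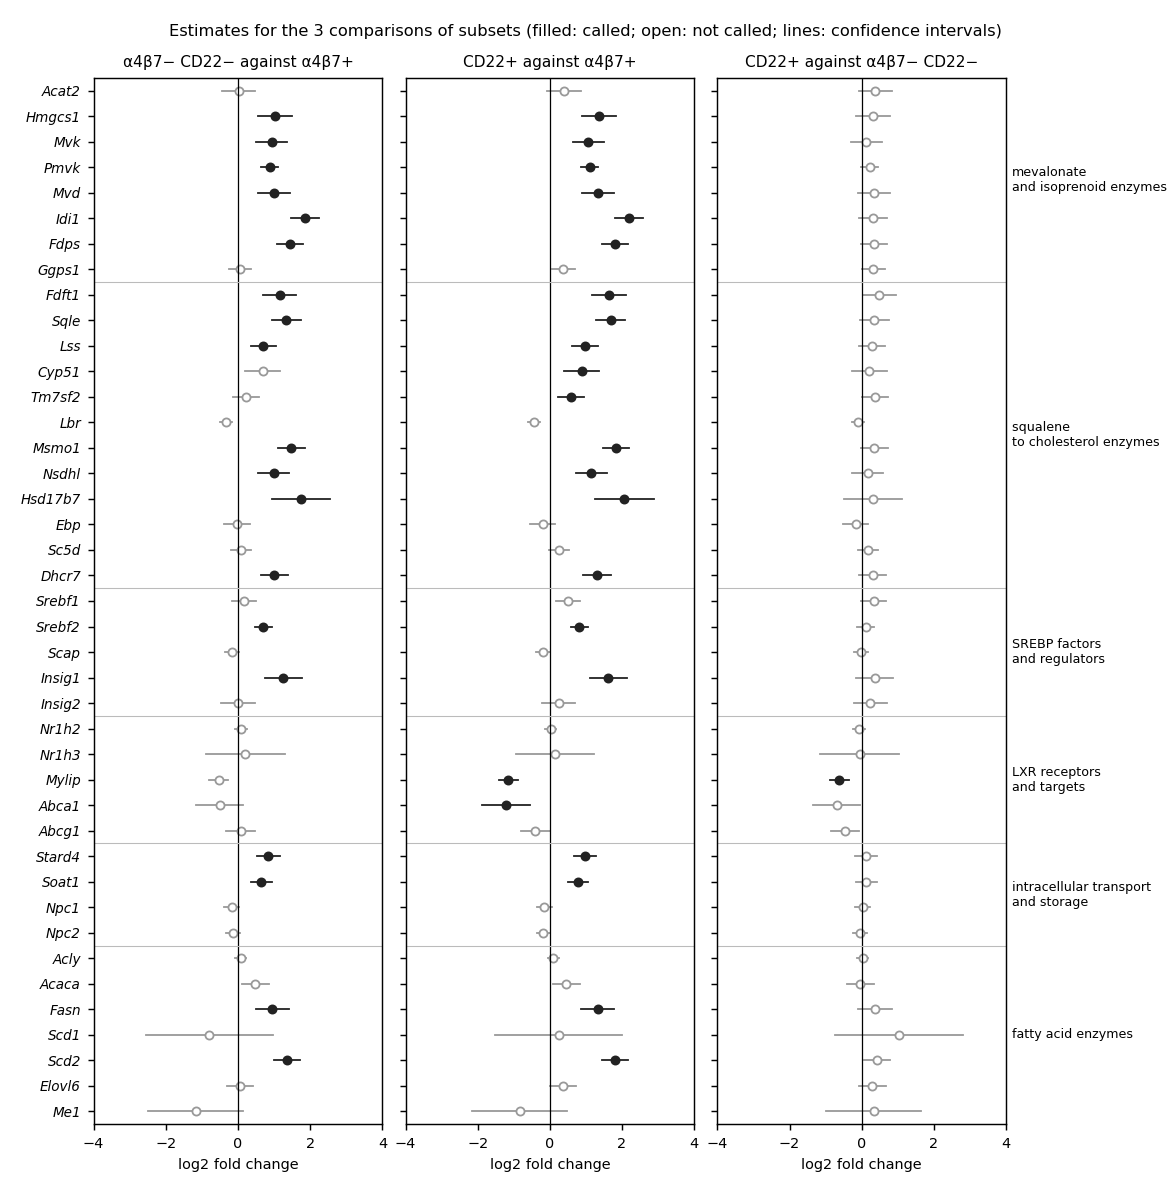
Log2 fold changes of the 41 members (points) with 95% intervals (lines) for the 3 comparisons of subsets, grouped by role; filled points were called and open points were not. In both comparisons with α4β7+ eosinophils the called points of the sterol synthesis enzymes lie to the right of 0, while Mylip and Abca1 lie to the left in CD22+ eosinophils.

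The roles differed in how many of their members moved. Among the 20 sterol synthesis enzymes, 13 were called higher in α4β7− CD22− and 15 in CD22+ eosinophils, and their median estimates were 0.96 and 1.13 on the log2 scale. The other 21 members held 6 called higher in either comparison, with medians of 0.07 and 0.24. No test of this difference between lists was made. All 4 libraries lay above all 4 α4β7+ libraries for 17 of the 41 members in α4β7− CD22− and for 20 in CD22+ eosinophils, compared with 8.96% and 11.0% of all genes tested.

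**Figure D2:**
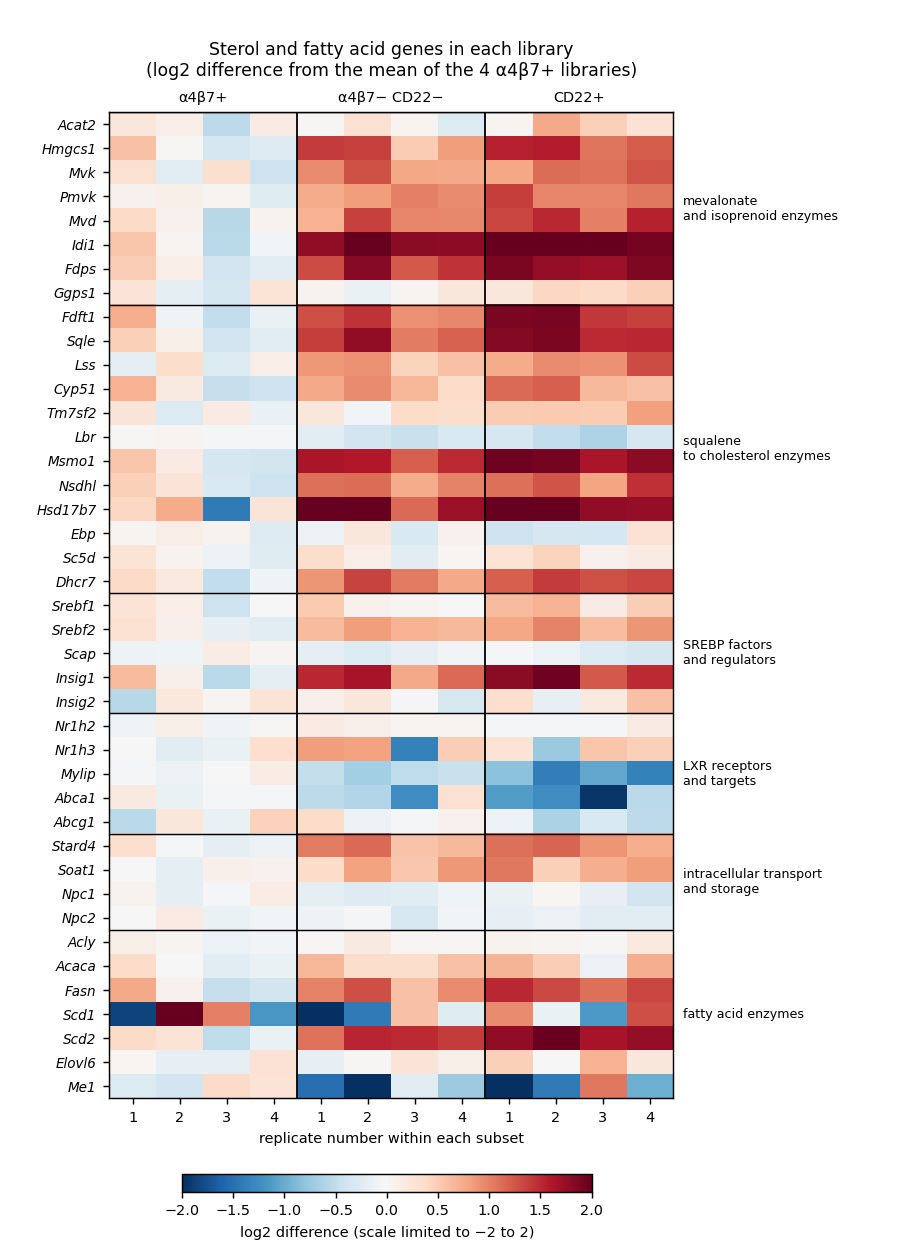
Each cell is the log2 difference of 1 member (y axis, grouped by role) in 1 library (x axis, replicate number within the subset) from the mean of the 4 α4β7+ libraries, with colors limited to −2 to 2. Most enzymes are red in all 8 libraries of the α4β7− CD22− and CD22+ subsets, whereas Lbr, Mylip, and Abca1 are mostly blue there.

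The mevalonate branch turns acetyl-CoA into the isoprenoid units from which sterols, ubiquinone, dolichol, and protein prenyl groups are made. Of its 8 enzymes, 6 rose in both comparisons with α4β7+ eosinophils. Hmgcs1 (ENSMUSG00000093930, chr13:119690379-119708260; positions are those of GRCm38), the HMG-CoA synthase, had normalized counts of 1646, 1110.1, 866, and 913 in the α4β7+ libraries, 2897, 2838, 1558, and 1957 in the α4β7− CD22− libraries, and 3206, 3264, 2306, and 2535 in the CD22+ libraries. The CD22+ libraries all exceeded the α4β7+ libraries, while 1 α4β7− CD22− library lay just below the highest α4β7+ library. Its log2 fold change against α4β7+ was 1.03 ± 0.22 (SE, adjusted p = 0.00501) in α4β7− CD22− and 1.35 ± 0.22 (SE, adjusted p = 0.00037) in CD22+ eosinophils.

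Mevalonate kinase, Mvk, was counted at 112, 77.8, 112, and 67.2 in the α4β7+ libraries, 174, 218, 154, and 152 in the α4β7− CD22− libraries, and 156, 197, 192, and 216 in the CD22+ libraries, and its log2 fold change was 0.93 ± 0.20 (SE, adjusted p = 0.00501) in α4β7− CD22− and 1.06 ± 0.20 (SE, adjusted p = 0.00124) in CD22+ eosinophils. Phosphomevalonate kinase, Pmvk, stood at 573, 584, 564, and 461 in the α4β7+ libraries, 906, 967, 1087, and 1052 in the α4β7− CD22− libraries, and 1422, 1073, 1070.4, and 1123 in the CD22+ libraries, with log2 fold changes of 0.88 ± 0.11 (SE, adjusted p = 8.48e-05) in α4β7− CD22− and 1.10 ± 0.11 (SE, adjusted p = 4.71e-06) in CD22+ eosinophils. Mvd, which decarboxylates mevalonate pyrophosphate, was found at 147, 119, 76.3, and 118 in the α4β7+ libraries, 182, 292, 222, and 219 in the α4β7− CD22− libraries, and 283, 319, 225, and 328 in the CD22+ libraries, with log2 fold changes of 1.00 ± 0.21 (SE, adjusted p = 0.0039) in α4β7− CD22− and 1.34 ± 0.21 (SE, adjusted p = 0.000232) in CD22+ eosinophils. For all 3 genes, neither of the other subsets overlapped with the α4β7+ libraries.

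Idi1 (ENSMUSG00000058258, chr13:8885501-8892451) had the largest rise of any member. Its normalized counts were 1001, 704, 468, and 656 in the α4β7+ libraries, 2347, 2905, 2378, and 2362 in the α4β7− CD22− libraries, and 3499, 3654, 2771, and 2572 in the CD22+ libraries, and even the lowest library of the other subsets lay far above the highest α4β7+ library. The log2 fold change was 1.86 ± 0.18 (SE, adjusted p = 6.88e-06) in α4β7− CD22− and 2.18 ± 0.18 (SE, adjusted p = 6.68e-07) in CD22+ eosinophils. Fdps, which condenses isoprenoid units to farnesyl pyrophosphate, reached 744, 580.3, 403, and 450.5 in the α4β7+ libraries, 1317, 1869, 1239.6, and 1449 in the α4β7− CD22− libraries, and 1961, 1786, 1730.4, and 1944 in the CD22+ libraries, again without overlap with the α4β7+ libraries. Its log2 fold change was 1.45 ± 0.17 (SE, adjusted p = 3.34e-05) in α4β7− CD22− and 1.81 ± 0.17 (SE, adjusted p = 1.84e-06) in CD22+ eosinophils. However, 91.4% of the Fdps transcript matched transcripts of other genes at 90% identity or more, among them Gm43738 on the same strand, so its count could be split between them.

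The remaining enzymes of the branch were not called. Acat2, the cytosolic acetoacetyl-CoA thiolase that starts the pathway, ranged from 70.3 to 172 over all libraries, with log2 fold changes of 0.02 and 0.40. Ggps1, which makes geranylgeranyl pyrophosphate and so leads away from sterols, ranged from 242 to 429.5, with 0.06 and 0.37 (adjusted p = 0.852 and 0.0901) in the 2 comparisons with α4β7+ eosinophils. The 95% interval of its difference between CD22+ and α4β7+ eosinophils was 0.06 to 0.69, below the interval of Idi1, which was 1.79 to 2.57.

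**Figure D3:**
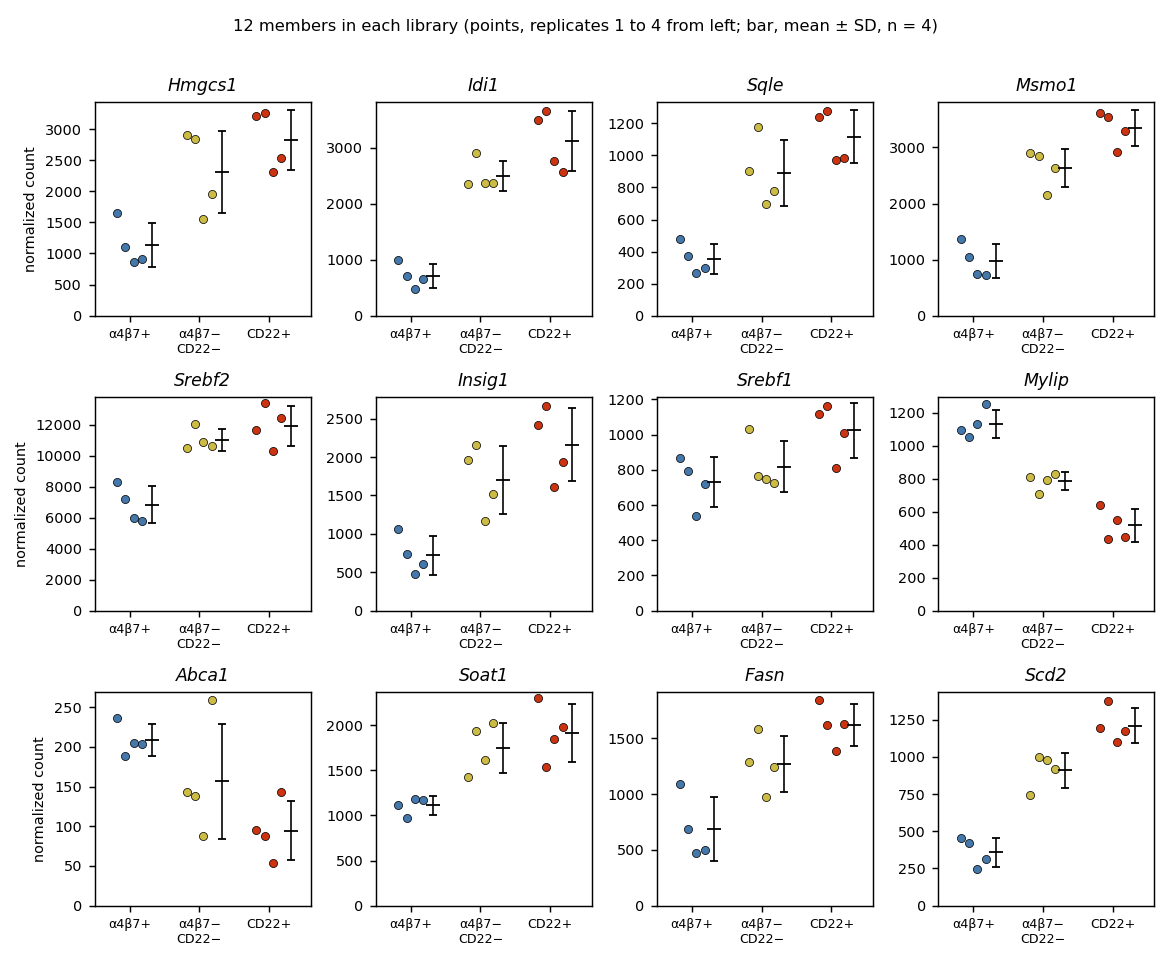
Normalized counts (y axis, from 0) of 12 members in each library of the 3 subsets (x axis); points are replicates 1 to 4 from left to right, and the bar is the mean ± SD of 4 libraries. Hmgcs1, Idi1, Sqle, Msmo1, Insig1, and Scd2 are lowest in the α4β7+ subset, Mylip is highest in the α4β7+ and lowest in the CD22+ subset, and Srebf1 overlaps between all subsets.

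From squalene onward the enzymes commit carbon to sterols. Of 12 such enzymes, 7 rose in α4β7− CD22− and 9 in CD22+ against α4β7+ eosinophils. Fdft1, the squalene synthase, had normalized counts of 796, 458, 339.6, and 436 in the α4β7+ libraries, 1183, 1312, 909, and 938 in the α4β7− CD22− libraries, and 1773, 1808, 1281, and 1241 in the CD22+ libraries, with log2 fold changes of 1.15 ± 0.22 (SE, adjusted p = 0.0023) in α4β7− CD22− and 1.64 ± 0.22 (SE, adjusted p = 6.67e-05) in CD22+ eosinophils. Sqle, the squalene epoxidase, was at 478, 375, 264, and 298 in the α4β7+ libraries, 905, 1176, 698, and 781 in the α4β7− CD22− libraries, and 1239.7, 1279, 972, and 983 in the CD22+ libraries, with log2 fold changes of 1.34 ± 0.19 (SE, adjusted p = 0.000207) in α4β7− CD22− and 1.68 ± 0.19 (SE, adjusted p = 1.18e-05) in CD22+ eosinophils. Neither gene overlapped between the α4β7+ subset and the others. The Fdft1 transcript shares exon bases with Ctsb on the opposite strand, and 54.7% of it matched other genes, so its counts are less certain than those of Sqle, for which the share was 0.0%.

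Lss, which closes the rings to form lanosterol, was counted at 206, 302, 196, and 259.5 in the α4β7+ libraries, 430.1, 445, 324, and 356 in the α4β7− CD22− libraries, and 397, 459.7, 445, and 584 in the CD22+ libraries, without overlap between α4β7+ and the other subsets, and its log2 fold change was 0.70 ± 0.17 (SE, adjusted p = 0.00974) in α4β7− CD22− and 0.97 ± 0.17 (SE, adjusted p = 0.000534) in CD22+ eosinophils. Cyp51, the lanosterol demethylase, varied widely among α4β7+ libraries, at 2121, 1478, 948, and 976 in the α4β7+ libraries, 2210.3, 2526, 2059.6, and 1675 in the α4β7− CD22− libraries, and 2853, 2973, 2051, and 1956 in the CD22+ libraries. The highest α4β7+ library of Cyp51 overlapped with both other subsets. With log2 fold changes of 0.68 ± 0.23 (SE, adjusted p = 0.0582) in α4β7− CD22− and 0.89 ± 0.23 (SE, adjusted p = 0.0111) in CD22+ eosinophils, Cyp51 was called in CD22+ but not in α4β7− CD22− eosinophils. In the latter it was called without replicate 1 of α4β7+ (0.92) or replicate 4 of α4β7− CD22− (0.79), and in 7 of 25 alternatives in all, while the call in CD22+ eosinophils was lost without the most epithelial library of each subset (0.83, adjusted p = 0.051 with limma). Tm7sf2, a sterol reductase, was low at 129, 88.7, 120.2, and 97.5 in the α4β7+ libraries, 127, 104, 138, and 137 in the α4β7− CD22− libraries, and 154, 154, 153, and 191 in the CD22+ libraries, and its CD22+ libraries alone all exceeded the α4β7+ libraries. Its log2 fold change was 0.22 ± 0.17 (SE, adjusted p = 0.447) in α4β7− CD22− and 0.59 ± 0.17 (SE, adjusted p = 0.0227) in CD22+ eosinophils, close to the fold threshold. Over its annotated transcripts Tm7sf2 shares 532 exon bases with Vps51 on the same strand, so its count could be split between them. The call was lost when any 1 of 3 libraries was left out, namely replicate 2 or 4 of α4β7+ or replicate 4 of CD22+, where the estimates were 0.50 to 0.54.

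Lbr carries out the same reduction as Tm7sf2 but is also a structural protein of the nuclear envelope, and its estimates lay below 0. Its normalized counts were 3802, 3893, 3708, and 3649.6 in the α4β7+ libraries, 3232, 2875, 2761, and 3059 in the α4β7− CD22− libraries, and 3001, 2680.3, 2458, and 2992 in the CD22+ libraries, so that every library of the other subsets lay below every α4β7+ library. The log2 fold changes of −0.34 ± 0.08 (SE, adjusted p = 0.00825) in α4β7− CD22− and −0.44 ± 0.08 (SE, adjusted p = 0.00075) in CD22+ eosinophils passed the adjusted p but not the fold change of 1.5, so Lbr was not called.

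The next enzymes remove methyl groups and reduce ketones. Msmo1 (ENSMUSG00000031604, chr8:64718139-64733792), the sterol C4-methyl oxidase, reached 1372, 1046, 736, and 731 in the α4β7+ libraries, 2907, 2849, 2149, and 2635 in the α4β7− CD22− libraries, and 3624, 3538, 2919.7, and 3297 in the CD22+ libraries. The 3 subsets did not overlap in either step, and the log2 fold change was 1.48 ± 0.17 (SE, adjusted p = 3.46e-05) in α4β7− CD22− and 1.83 ± 0.17 (SE, adjusted p = 1.99e-06) in CD22+ eosinophils. Nsdhl, the sterol dehydrogenase of the same complex, was at 259, 220.1, 149, and 138 in the α4β7+ libraries, 398, 401, 309, and 369 in the α4β7− CD22− libraries, and 396, 445, 321, and 509.7 in the CD22+ libraries, again without overlap with the α4β7+ libraries, with log2 fold changes of 0.99 ± 0.20 (SE, adjusted p = 0.00358) in α4β7− CD22− and 1.15 ± 0.20 (SE, adjusted p = 0.000648) in CD22+ eosinophils. Hsd17b7, the ketosteroid reductase that completes this step, stood at 142, 177, 39.2, and 125 in the α4β7+ libraries, 442, 438, 234, and 351 in the α4β7− CD22− libraries, and 466, 645, 361, and 359 in the CD22+ libraries. All libraries of the other subsets exceeded the α4β7+ libraries, although replicate 3 of α4β7+ was far below the other three. The log2 fold change of Hsd17b7 was 1.74 ± 0.38 (SE, adjusted p = 0.0055) in α4β7− CD22− and 2.06 ± 0.38 (SE, adjusted p = 0.000995) in CD22+ eosinophils.

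Of the final enzymes, only Dhcr7, the 7-dehydrocholesterol reductase, was called. It was counted at 214, 189, 116, and 154 in the α4β7+ libraries, 304, 419.5, 339.9, and 279 in the α4β7− CD22− libraries, and 377, 437, 401, and 416 in the CD22+ libraries, without overlap between α4β7+ and the other subsets, and its log2 fold change was 1.01 ± 0.18 (SE, adjusted p = 0.00124) in α4β7− CD22− and 1.30 ± 0.18 (SE, adjusted p = 7.77e-05) in CD22+ eosinophils. Ebp, the sterol isomerase, ranged from 311 to 505 over all libraries, with log2 fold changes of −0.03 and −0.20. Sc5d, the sterol desaturase, ranged from 1624 to 2619, with 0.08 and 0.25. The interval of Sc5d between CD22+ and α4β7+ eosinophils, −0.03 to 0.52, lay below that of its neighbor Dhcr7, 0.92 to 1.68.

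Among the SREBP genes, the factor of sterol synthesis and the sterol-regulated Insig gene rose, and the others were not called. Srebf2 (ENSMUSG00000022463, chr15:82147181-82205379) encodes SREBP2, the factor most closely tied to cholesterol synthesis. Its normalized counts were 8339.5, 7241, 6001, and 5785 in the α4β7+ libraries, 10481, 12085, 10883, and 10626 in the α4β7− CD22− libraries, and 11637, 13405, 10316, and 12415 in the CD22+ libraries, with no overlap between α4β7+ and the other subsets. The log2 fold change was 0.70 ± 0.11 (SE, adjusted p = 0.000516) in α4β7− CD22− and 0.81 ± 0.11 (SE, adjusted p = 7.57e-05) in CD22+ eosinophils. Srebf1, which encodes the factor more closely tied to fatty acid synthesis, was found at 868, 793, 538, and 719 in the α4β7+ libraries, 1034, 765, 747, and 725 in the α4β7− CD22− libraries, and 1115, 1164, 809.6, and 1009 in the CD22+ libraries. All 3 subsets overlapped, and the log2 fold change of 0.17 ± 0.16 (SE, adjusted p = 0.544) in α4β7− CD22− and 0.50 ± 0.16 (SE, adjusted p = 0.0379) in CD22+ eosinophils passed the adjusted p in CD22+ eosinophils but fell short of the fold threshold. Srebf1 was called there without replicate 1 of α4β7+ (0.59) or replicate 3 of CD22+ (0.61), and in 5 of 25 alternatives in all. The isoforms of Srebf1, which start at different promoters, were not told apart in these gene-level values.

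Insig1 (ENSMUSG00000045294, chr5:28071363-28078662), itself a target of the SREBP factors, had normalized counts of 1068, 737, 473, and 605 in the α4β7+ libraries, 1964, 2158, 1164, and 1515 in the α4β7− CD22− libraries, and 2414, 2669.6, 1612, and 1931 in the CD22+ libraries, and no library of the other subsets fell within the α4β7+ range. Its log2 fold change was 1.26 ± 0.24 (SE, adjusted p = 0.00222) in α4β7− CD22− and 1.62 ± 0.24 (SE, adjusted p = 0.000167) in CD22+ eosinophils. Insig2, the relative that is not under the same control, was low at 87.2, 149, 134, and 156 in the α4β7+ libraries, 138, 150.3, 127, and 103 in the α4β7− CD22− libraries, and 161, 115, 148, and 194 in the CD22+ libraries. Its subsets overlapped, with log2 fold changes of −0.00 ± 0.22 (SE, adjusted p = 0.994) in α4β7− CD22− and 0.24 ± 0.22 (SE, adjusted p = 0.499) in CD22+ eosinophils. Scap was counted at 1501, 1512, 1783, and 1668 in the α4β7+ libraries, 1407, 1340.3, 1445, and 1545 in the α4β7− CD22− libraries, and 1575, 1486, 1329.8, and 1279 in the CD22+ libraries, and its log2 fold changes were −0.17 ± 0.09 (SE, adjusted p = 0.236) in α4β7− CD22− and −0.19 ± 0.09 (SE, adjusted p = 0.152) in CD22+ eosinophils. The 95% interval of Scap in CD22+ against α4β7+ eosinophils was −0.38 to −0.00, so a rise as large as that of Srebf2 lay outside it.

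No LXR gene was called higher, and 2 of the 5 were called lower in CD22+ eosinophils. At an unadjusted p under 0.05, limma gave 0 of them higher in this comparison and 3 lower. Nr1h2, which encodes the widely expressed receptor LXRβ, was at 1514, 1713, 1517, and 1624 in the α4β7+ libraries, 1779, 1704, 1642, and 1644 in the α4β7− CD22− libraries, and 1549, 1566, 1559.9, and 1783 in the CD22+ libraries, with log2 fold changes of 0.09 ± 0.07 (SE, adjusted p = 0.488) in α4β7− CD22− and 0.02 ± 0.07 (SE, adjusted p = 0.891) in CD22+ eosinophils. Nr1h3, which encodes LXRα, was near the limit of what this depth could measure, at 13.9, 11.9, 12.5, and 17.7 in the α4β7+ libraries, 25.6, 24.7, 4.8, and 19.9 in the α4β7− CD22− libraries, and 17.1, 7.8, 20.7, and 19.5 in the CD22+ libraries. Its 95% interval in CD22+ against α4β7+ eosinophils, −0.95 to 1.23, allows a change of either sign.

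Mylip (ENSMUSG00000038175, chr13:45389742-45412022), an LXR target that encodes a ubiquitin ligase for lipoprotein receptors, was lowest in CD22+ eosinophils. Its normalized counts were 1097, 1050.3, 1130.5, and 1252 in the α4β7+ libraries, 812, 706, 792, and 827 in the α4β7− CD22− libraries, and 639.5, 433, 549, and 444 in the CD22+ libraries, and the 3 subsets did not overlap. Against α4β7+, the log2 fold change was −0.53 ± 0.12 (SE, adjusted p = 0.00784) in α4β7− CD22− and −1.15 ± 0.12 (SE, adjusted p = 6.1e-06) in CD22+ eosinophils, of which the first passed the adjusted p but not the fold threshold. It was the only member called with CD22+ set against α4β7− CD22− eosinophils, where the log2 fold change was −0.62 ± 0.12 (SE, adjusted p = 0.0223). This call was lost without any 1 of 5 libraries, namely replicates 1, 3, and 4 of α4β7− CD22− and replicates 2 and 4 of CD22+, with estimates of −0.54 to −0.61. Across all genes tested, every CD22+ library was lower than every α4β7− CD22− library for 3.72%, and among the members this held for Mylip and Abcg1.

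Abca1 (ENSMUSG00000015243, chr4:53030787-53159895), which exports cholesterol to lipid-poor apolipoprotein, had normalized counts of 236, 189, 205, and 204 in the α4β7+ libraries, 143, 138, 87.4, and 259 in the α4β7− CD22− libraries, and 95.0, 87.4, 53.3, and 143 in the CD22+ libraries. All CD22+ libraries were below all α4β7+ libraries, while the α4β7− CD22− libraries spread over both. The log2 fold change was −0.51 ± 0.31 (SE, adjusted p = 0.314) in α4β7− CD22− and −1.21 ± 0.31 (SE, adjusted p = 0.0105) in CD22+ eosinophils. Abcg1, which exports cholesterol to mature lipoprotein particles, was at 847, 1434, 1116, and 1700.1 in the α4β7+ libraries, 1578, 1144, 1194, and 1306 in the α4β7− CD22− libraries, and 1137, 791, 992, and 859 in the CD22+ libraries. Its log2 fold changes were 0.07 ± 0.18 (SE, adjusted p = 0.853) in α4β7− CD22− and −0.40 ± 0.18 (SE, adjusted p = 0.153) in CD22+ eosinophils, and it was not called in CD22+ against α4β7− CD22− eosinophils either (log2 fold change −0.47, adjusted p = 0.371).

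Of the genes that move or store sterols inside the cell, the carrier and the storage enzyme rose, and the lysosomal pair were not called. Stard4, a soluble sterol carrier, had normalized counts of 1444, 1129, 1011, and 1060.1 in the α4β7+ libraries, 2337, 2509, 1709, and 1809.5 in the α4β7− CD22− libraries, and 2459, 2569, 2132, and 1890.4 in the CD22+ libraries, with log2 fold changes of 0.84 ± 0.14 (SE, adjusted p = 0.000983) in α4β7− CD22− and 0.97 ± 0.14 (SE, adjusted p = 0.000179) in CD22+ eosinophils. Soat1, which esterifies cholesterol for storage in lipid droplets, was counted at 1111, 968, 1186, and 1175 in the α4β7+ libraries, 1428, 1940.0, 1611, and 2021 in the α4β7− CD22− libraries, and 2299, 1533, 1841, and 1982 in the CD22+ libraries, with log2 fold changes of 0.65 ± 0.13 (SE, adjusted p = 0.00366) in α4β7− CD22− and 0.77 ± 0.13 (SE, adjusted p = 0.000546) in CD22+ eosinophils. Both genes were higher in every library of the other subsets than in any α4β7+ library. The call of Soat1 in α4β7− CD22− eosinophils was lost without replicate 2 of α4β7+ or replicate 4 of α4β7− CD22−, where the log2 fold changes were 0.58 and 0.57.

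Npc1 and Npc2 together release cholesterol from lysosomes. Npc1 ranged from 813 to 1164 and had log2 fold changes of −0.18 and −0.16, with an interval of −0.37 to 0.05 in CD22+ against α4β7+ eosinophils. Npc2 ranged from 906 to 1279, with −0.13 and −0.18 and an interval of −0.37 to 0.01. Both intervals lay below that of Stard4, 0.66 to 1.27.

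Among the 7 fatty acid enzymes, 2 rose and the others were not called. Fasn (ENSMUSG00000025153, chr11:120805846-120824547), the fatty acid synthase, had normalized counts of 1089, 684, 470.0, and 501 in the α4β7+ libraries, 1284, 1586, 977, and 1243 in the α4β7− CD22− libraries, and 1843, 1619.7, 1391, and 1626 in the CD22+ libraries. Every CD22+ library exceeded the α4β7+ libraries, whereas the highest α4β7+ library overlapped with the α4β7− CD22− range. The log2 fold change was 0.95 ± 0.22 (SE, adjusted p = 0.00808) in α4β7− CD22− and 1.32 ± 0.22 (SE, adjusted p = 0.000444) in CD22+ eosinophils. Scd2 (ENSMUSG00000025203, chr19:44293674-44306864), a stearoyl-CoA desaturase, was at 453, 420.3, 244, and 316 in the α4β7+ libraries, 742, 999.9, 978, and 918 in the α4β7− CD22− libraries, and 1193, 1379, 1098, and 1172 in the CD22+ libraries, and the 3 subsets did not overlap in either step. Its log2 fold change was 1.37 ± 0.17 (SE, adjusted p = 5.91e-05) in α4β7− CD22− and 1.79 ± 0.17 (SE, adjusted p = 2.04e-06) in CD22+ eosinophils, the largest of the fatty acid enzymes that were called. A share of 14.8% of the Scd2 transcript matched its relatives Scd1 and Scd4.

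The enzymes that supply or extend the work of Fasn were not called. Acly, which makes cytosolic acetyl-CoA from citrate, was abundant, ranging from 4020.2 to 4983, with an interval of −0.06 to 0.24 in CD22+ against α4β7+ eosinophils. Acaca, the acetyl-CoA carboxylase, ranged from 661 to 1286, and its log2 fold changes were 0.48 ± 0.17 (SE, adjusted p = 0.0774) in α4β7− CD22− and 0.45 ± 0.17 (SE, adjusted p = 0.0826) in CD22+ eosinophils. Acaca was called in α4β7− CD22− eosinophils without replicate 1 of α4β7+ (0.61), and in CD22+ eosinophils without replicate 3 of CD22+ (0.64) and in 3 of 25 alternatives in all. Elovl6, an elongase, ranged from 162 to 297, with 0.06 and 0.35. Scd1 and Me1 were low and varied among libraries of 1 subset. Scd1, the desaturase best known from liver and fat, ranged from 6.4 to 126, and Me1, a source of NADPH, from 4.9 to 56.7. Their intervals in CD22+ against α4β7+ eosinophils, −1.53 to 2.01 and −2.16 to 0.48, left changes of either sign possible at this depth.

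Most of the rise lay in the first step, from α4β7+ to α4β7− CD22− eosinophils. Both comparisons with the α4β7+ subset share its libraries. For the 21 members called higher in CD22+ than in α4β7+ eosinophils, the first step made up 37.8% to 88.0% of the whole log2 difference, with a median of 79.5%. Tm7sf2 had the smallest share. Over all genes tested, 564 were called higher in the first step, 32 in the second, and 854 in CD22+ against α4β7+ eosinophils. Few calls in the second step were thus not particular to the members. The share of the first step was not computed over all genes. In CD22+ against α4β7− CD22− eosinophils, all 20 estimates of the synthesis enzymes lay between −0.17 and 0.49, and 18 of them were above 0. Every CD22+ library was higher than every α4β7− CD22− library for 3 members, Tm7sf2, Msmo1, and Scd2, compared with 2.66% of all genes tested. Set against the mean of the α4β7+ and CD22+ subsets, only 1 member was called off the midpoint in α4β7− CD22− eosinophils, where 0.630% of all genes were called in either direction. This was Idi1, with a log2 difference of 0.78 ± 0.16 (SE, adjusted p = 0.0251). Its call was lost without any single one of the 4 α4β7− CD22− libraries. Without replicate 1 of α4β7+, 3 members were called, namely Idi1, Fdps, and Msmo1.

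Levels can be compared between genes only per length, so mean normalized counts were divided by the length of the principal transcript in kilobases (kb). On this scale Srebf2 was the highest member in both α4β7+ (1348 per kb) and CD22+ eosinophils (2352 per kb), far above Srebf1 (169.7 and 238 per kb). Within sterol synthesis, Lbr led in α4β7+ eosinophils at 1072 per kb, whereas Msmo1 led in CD22+ eosinophils at 1636 per kb, up from 475 per kb in α4β7+ eosinophils. Fdps and Idi1 came next among the sterol enzymes in CD22+ eosinophils, at 1343 and 1032 per kb.

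The lowest sterol enzymes in CD22+ eosinophils were Acat2 (60.3 per kb), Ggps1 (94.2 per kb), and Hsd17b7 (99.2 per kb). Lbr exceeded its counterpart Tm7sf2 in every subset, at 793 against 111 per kb in CD22+ eosinophils. Of the LXR receptors, Nr1h2 at 808 per kb stood far above Nr1h3 at 8.3 per kb, and of the desaturases Scd2 at 222 stood above Scd1 at 9.2 per kb. Transcript lengths were taken from the annotation and not measured, so these levels are a description.

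**Figure D4:**
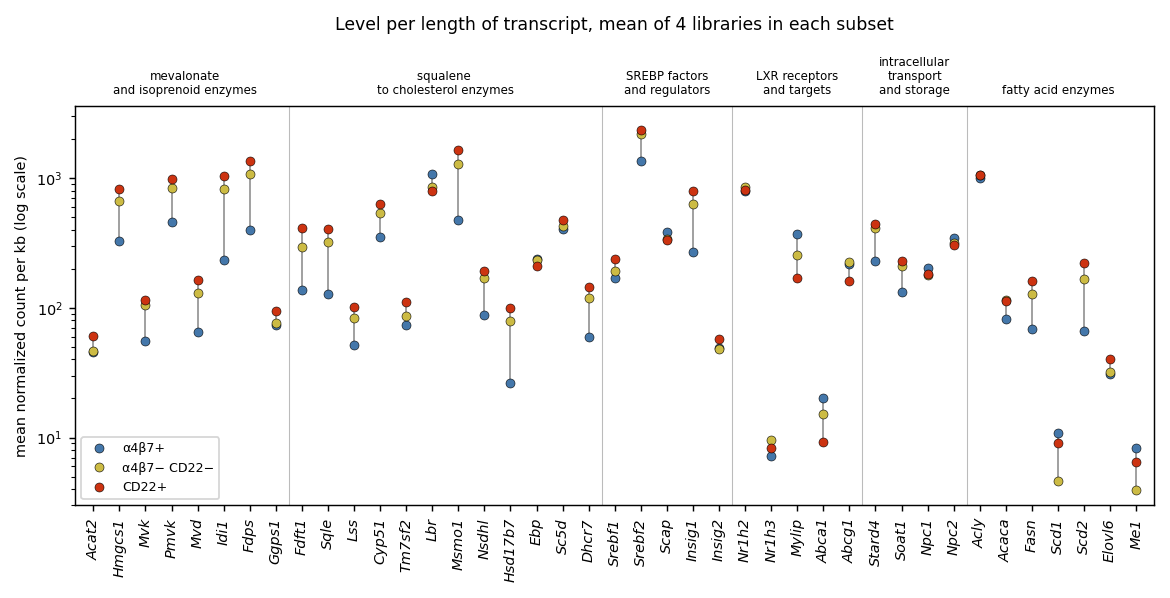
Mean normalized count per kb of transcript (y axis, log scale) of each member (x axis, grouped by role) in the 3 subsets; points are means of 4 libraries and gray lines join the subsets. Srebf2 lies at the top with 2352 per kb in CD22+ eosinophils, and Nr1h3, Scd1, and Me1 lie near the bottom.

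Genes that work beside the members were followed in 5 further lists of 68 genes, of which 66 were tested. In CD22+ against α4β7+ eosinophils 7 of the 66 were called higher and 2 lower, beside 5.60% and 6.39% of all genes tested, and in α4β7− CD22− eosinophils 3 higher and 2 lower, beside 3.70% and 4.35%. The counts in α4β7− CD22− eosinophils were thus near those shares. The median estimates were 0.14 and −0.01 on the log2 scale. Between CD22+ and α4β7− CD22− eosinophils 1 was called higher and 0 lower, and against the midpoint 1 was called, Olr1, a receptor for oxidized lipoprotein, which was lower. At an unadjusted p under 0.05, limma gave 10 of the 66 higher and 2 lower between CD22+ and α4β7− CD22− eosinophils.

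The other SREBP pathway genes, which include the proteases Mbtps1 and Mbtps2 and the ligases that turn over Insig proteins, held 0 called of 10 in all comparisons with limma, with 2 higher at an unadjusted p under 0.05 in CD22+ against α4β7+ eosinophils. Of 14 genes of isoprenoid branches and sterol handling, 2 rose in CD22+ eosinophils. These were Coq2, an enzyme of ubiquinone synthesis (log2 fold change 0.59, adjusted p = 0.00174), and Tmem97, a sterol-binding protein of the endoplasmic reticulum (log2 fold change 0.83, adjusted p = 0.0275). Of 18 other fatty acid genes, 4 rose in CD22+ eosinophils. The largest changes were those of Acsl3, an acyl-CoA synthetase (1.31, adjusted p = 0.000342), and Lpin1, a phosphatidate phosphatase (0.95, adjusted p = 0.000134), and the remaining genes were Acsl1 and Fads1. Acsl1 was also the gene called higher between CD22+ and α4β7− CD22− eosinophils (log2 fold change 0.60, adjusted p = 0.0303).

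For uptake, 1 of 12 lipoprotein receptor and lysosome genes was called. Olr1 had normalized counts of 2184, 1792, 2159, and 2109 in the α4β7+ libraries, 500.2, 596, 419, and 618 in the α4β7− CD22− libraries, and 465, 472, 285, and 358 in the CD22+ libraries, and the α4β7+ libraries stood far above all others. Its log2 fold change was −1.96 ± 0.16 (SE, adjusted p = 1.38e-06) in α4β7− CD22− and −2.41 ± 0.16 (SE, adjusted p = 6.82e-08) in CD22+ eosinophils. For efflux and oxysterol handling, 12 of 14 genes were tested and 2 were called in both comparisons, in opposite directions. Lpcat3, an enzyme that remodels phospholipids, was lower, with log2 fold changes of −0.77 ± 0.09 (SE, adjusted p = 5.28e-05) in α4β7− CD22− and −1.10 ± 0.09 (SE, adjusted p = 7.85e-07) in CD22+ eosinophils. Abcg4, a sterol exporter, was higher but close to the floor of 3 reads, at 2.7, 1.3, 5.9, and 2.0 in the α4β7+ libraries, 14.2, 12.5, 7.0, and 11.2 in the α4β7− CD22− libraries, and 50.5, 11.2, 33.3, and 36.9 in the CD22+ libraries, with log2 fold changes of 1.70 ± 0.55 (SE, adjusted p = 0.0494) in α4β7− CD22− and 3.04 ± 0.55 (SE, adjusted p = 0.000886) in CD22+ eosinophils.

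Promoter sequences were examined because many members moved together. RefSeq promoters of GRCm38.p6, from 250 bases before to 50 bases after a start site, were matched by symbol for 33 of the 41 members. On both strands a search was made for CCAAT, the box bound by NF-Y, which acts together with SREBP factors, and for TCACNCCAC, a core form of the sterol regulatory element. CCAAT was found in 26 of the 33 members (78.8%), compared with 41.1% of 27025 genes with a promoter and 42.8% of the genes tested that had one. It was present in 16 of the 16 matched members that were called higher and in 10 of 17 others. Of the 17 sterol synthesis enzymes with a promoter, 16 (94.1%) held it, among them Ggps1, Lbr, Ebp, and Sc5d, which were not called. At least 2 boxes were found in 45.5% of members and 13.3% of all genes. TCACNCCAC was found only in Hmgcs1 among the members and in 1.44% of all genes. A gene with several start sites was counted once, when any of its windows held the motif. The letters of both motifs can share at most 1 base at their ends, and CCAAT boxes on opposite strands can share bases.

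The 250 bases before the start are shown for 5 members whose windows held no annotated exon, namely 3 that rose (Hmgcs1, Mvd, and Fasn), Sc5d, which was not called, and Mylip, which was lower in CD22+ eosinophils. Each is printed 5′ to 3′ on the strand of the gene, with both motifs in capitals. A box on the opposite strand reads ATTGG.
Hmgcs1 chr13:119690101-119690350: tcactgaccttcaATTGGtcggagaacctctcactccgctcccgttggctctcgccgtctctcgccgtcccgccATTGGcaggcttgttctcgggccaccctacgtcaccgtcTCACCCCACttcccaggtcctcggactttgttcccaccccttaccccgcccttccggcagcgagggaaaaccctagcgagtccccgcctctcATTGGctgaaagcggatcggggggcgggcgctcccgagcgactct
Mvd chr8:122443423-122443672: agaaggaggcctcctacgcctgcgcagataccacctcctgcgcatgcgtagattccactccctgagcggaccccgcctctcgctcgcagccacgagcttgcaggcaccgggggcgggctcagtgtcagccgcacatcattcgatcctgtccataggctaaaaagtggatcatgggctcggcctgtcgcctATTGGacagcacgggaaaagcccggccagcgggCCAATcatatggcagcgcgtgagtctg
Fasn chr11:120824548-120824797: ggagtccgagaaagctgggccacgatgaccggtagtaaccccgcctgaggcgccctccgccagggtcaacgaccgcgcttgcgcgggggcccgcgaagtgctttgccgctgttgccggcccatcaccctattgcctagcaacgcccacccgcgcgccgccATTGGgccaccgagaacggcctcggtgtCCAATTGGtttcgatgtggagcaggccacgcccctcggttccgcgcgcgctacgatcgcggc
Sc5d chr9:42264301-42264550: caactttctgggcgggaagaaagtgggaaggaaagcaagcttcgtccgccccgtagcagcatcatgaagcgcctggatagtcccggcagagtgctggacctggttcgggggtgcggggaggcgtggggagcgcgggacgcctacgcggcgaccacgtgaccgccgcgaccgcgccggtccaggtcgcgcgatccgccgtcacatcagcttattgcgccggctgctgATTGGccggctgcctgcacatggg
Mylip chr13:45389492-45389741: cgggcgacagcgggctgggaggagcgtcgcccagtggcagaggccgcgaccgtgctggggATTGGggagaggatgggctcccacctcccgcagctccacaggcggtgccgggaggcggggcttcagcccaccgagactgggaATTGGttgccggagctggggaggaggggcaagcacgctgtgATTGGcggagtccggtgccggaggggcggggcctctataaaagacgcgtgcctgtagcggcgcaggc

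In Hmgcs1, on the plus strand of chromosome 13, the element TCACCCCAC lies from −137 to −129, between CCAAT boxes on the opposite strand that begin at −176 and −45. Mvd, on the minus strand of chromosome 8, holds boxes that begin at −60 and −27, and Fasn, on the minus strand of chromosome 11, holds boxes at −90, −62, and −59, of which the last pair share bases. Sc5d, on the minus strand of chromosome 9, has 1 box at −24. Mylip, on the plus strand of chromosome 13, has 3 boxes although it was lower in CD22+ eosinophils. A match is a description of letters, and binding was not measured here.

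Libraries of 1 subset also differed from one another in the members. Over the 20 synthesis enzymes, the mean log2 difference from the α4β7+ mean was 0.35, 0.10, −0.32, and −0.13 in α4β7+ replicates 1 to 4. It was 0.86, 1.00, 0.65, and 0.75 in α4β7− CD22− and 1.08, 1.19, 0.91, and 1.08 in CD22+ libraries. The lowest library outside the α4β7+ subset thus stood above the highest within it. Of the 15 enzymes that were called higher, 12 were higher in both replicates 1 and 2 than in both replicates 3 and 4 of the α4β7+ subset, 9 in α4β7− CD22−, and 7 in CD22+ libraries. The reverse held for 0, 2, and 0 of the 15. Of the 14 epithelial markers, 14, 13, and 14 were lower in replicates 1 and 2. Shares of all genes with either pattern were not counted. The part of the epithelial markers in the replicate differences of the enzymes was not tested. Within replicates 1 and 2, the median log2 difference of the 20 enzymes from α4β7+ was 0.80 in α4β7− CD22− and 0.96 in CD22+ eosinophils. Within replicates 3 and 4 it was 1.02 and 1.33. These pairs follow the pattern described above, and medians over all genes were not taken for them. With the epithelial sum as a covariate, 19 and 21 members were called higher, where 516 and 786 of all genes tested were. Without the library of each subset with the highest sum, 19 and 21 members were again called higher, beside 472 and 780 of all genes. In that fit 13 rather than 15 enzymes were called in CD22+ eosinophils. Cdh17 was not part of this sum.

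**Figure D5:**
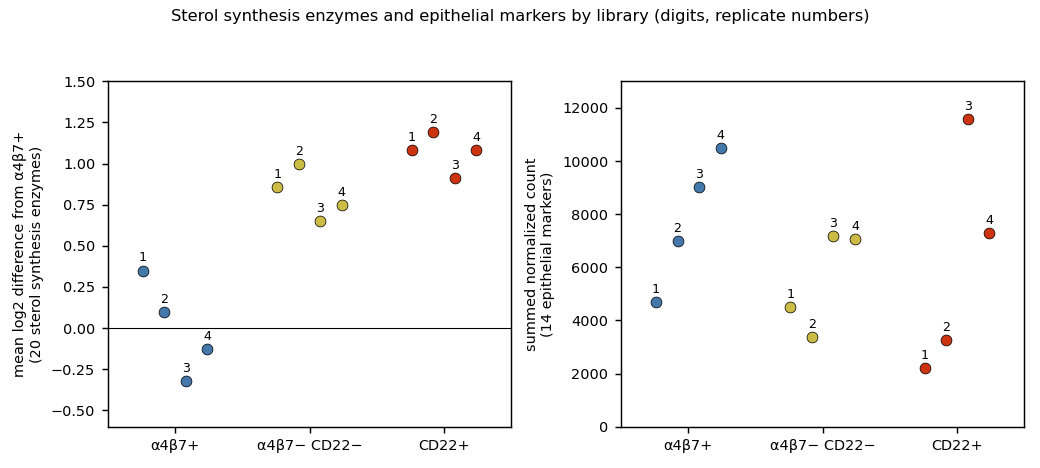
Left, mean log2 difference of the 20 sterol synthesis enzymes from the mean of the α4β7+ libraries (y axis) in each library; right, summed normalized counts of 14 epithelial markers (y axis); digits are replicate numbers. The enzymes of the α4β7− CD22− and CD22+ libraries lie between 0.65 and 1.19, above the α4β7+ libraries, while the epithelial sums of the 3 subsets overlap.

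Some members share sequence with other genes, which limits how exactly their reads can be assigned. At 90% identity or more, matches to other genes covered 65.6% of the Acat2, 64.3% of the Acaca, 62.5% of the Me1, 33.6% of the Ggps1, 33.3% of the Idi1, and 21.6% of the Scd1 transcript. Exon bases were shared with another gene by 16 members, 6 of them on the same strand. The members with the most shared bases were Fdps (1124, with Gm43738) and Tm7sf2 (532, with Vps51) on the same strand, and Scap (985), Fdft1 (774), Hmgcs1 (557), and Npc1 (511) on the opposite strand. Whether the counting used strand was not given in the sources used here, so reads from such overlapping genes cannot be told apart. Mvk, Pmvk, Mvd, Sqle, Msmo1, Nsdhl, Dhcr7, Srebf2, Mylip, Abca1, Stard4, and Fasn had no such match and shared no exon bases. The same held for Ebp, Insig2, Nr1h2, Abcg1, Npc2, and Acly.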

How the data were processed

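RNA of sorted α4β7+, α4β7− CD22−, and CD22+ eosinophils was sequenced in 4 libraries per subset. Per the labels and the study's methods, stranded total RNA libraries were made from 3 ng of RNA. The authors trimmed the reads with Trimmomatic 0.39, estimated counts with kallisto 0.46.1 on mm10, and normalized them with DESeq2 1.38.2, tool versions being those of the submitters' processing notes. The deposited signal values are the authors' normalized counts, from which whole reads could not be recovered, since only 30.8% to 64.6% of low values lay within 0.05 reads of a whole number. They were therefore analyzed as log2(normalized count + 1) with limma 3.58.1 in R 4.3.3, with a trend of the variance, all 3 subsets in the model, and a mean normalized count above 10. p was adjusted within each comparison over 15249 genes. The fit was also run on simulated data with changes of known size, and no result given here rests on that run. Totals per library ranged from 14286474 to 16915755.

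The members, lists, and alternatives were chosen with earlier results of these data known. Every member is named, with values per library for those called and for SREBP and LXR regulators. Of the 5 further lists, genes called are named, at most 2 per list and direction in full. The markers of other cells were those of enterocyte, Paneth, T, B and plasma, macrophage, mast, neutrophil, and stromal cells, and Paneth, T, macrophage, and stromal sums are given with the limits. Of 36047 identifiers, 35968 matched the GENCODE annotation of GRCm38, which gave positions and transcript lengths. Shared sequence was found with BLAST 2.17.0 in matches of at least 100 bases. Python 3.11.15, pandas 2.3.3, and matplotlib 3.10.9 served for tables and plots.
The fits were repeated with pseudocounts of 0.1 and 10, without the filter on low values or with it at 50, with other scalings, without limma's trend, with calls by adjusted p only, on pairs of subsets, with replicate numbers as blocks, and without each library in turn. An epithelial covariate and leaving out the most epithelial library of each subset were added after the data were seen. The numbers of libraries do not show whether they share mice, so the model has no block.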

Additional observations from a re-analysis of the deposited data

Results flagged for a closer look

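In groups of 4 libraries, the highest or lowest library of 10 of the 123 member and subset combinations stood apart from the other three by a gap above Dixon's limit, where chance alone would give about 6.2. In the α4β7+ subset, Acat2 was lowest in replicate 3 (70.3 normalized counts, others 111 to 118), and Pmvk was lowest in replicate 4 (461, others 564 to 584). In the α4β7− CD22− subset, Idi1 was highest in replicate 2 (2905, others 2347 to 2378), Acly was highest in replicate 2 (4945, others 4444 to 4500.3), and Srebf1 was highest in replicate 1 (1034, others 725 to 765). In the CD22+ subset, Pmvk was highest in replicate 1 (1423, others 1070.4 to 1123). In CD22+ replicate 4, Tm7sf2 reached 191 (others 153 to 155), Ebp 505 (others 311 to 325), and Nr1h2 1783 (others 1549 to 1566). In CD22+ replicate 3, Me1 reached 56.7 (others 5.7 to 13.1), and this library also had the highest epithelial marker sum, 11579. Whether epithelial RNA contributed to Me1 was not tested.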

How the results depend on the processing

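Over 25 alternatives the number of members called higher stayed between 18 and 21 in α4β7− CD22− and between 20 and 23 in CD22+ against α4β7+ eosinophils, and the sterol synthesis enzymes between 13 and 14 and between 13 and 15. No member was called higher between CD22+ and α4β7− CD22− eosinophils in any of these fits. With the adjusted p alone, 2 members, Lbr and Mylip, were lower in α4β7− CD22− than in α4β7+ eosinophils. Between CD22+ and α4β7− CD22− eosinophils the count of lower members was 0 with totals set equal without ribosomal protein genes, with limma without the trend, with only the subsets compared, and without the most epithelial library of each subset, and 0 to 1 when 1 library was left out. The count off the midpoint was 0 with limma without the trend and without the most epithelial library of each subset, and 0 to 3 when 1 library was left out. The cause was not tested. With the replicate block, 20 and 21 members were higher than in α4β7+ eosinophils, and the block changed the call only of Cyp51, which was then also called in α4β7− CD22− eosinophils. The correlation of the deviations of same-numbered libraries was 0.086, 0.037, and 0.171 for the 3 pairs of subsets. By replicate number, α4β7− CD22− with CD22+ libraries gave 0.135 to 0.203. Because not all 3 pairs of subsets exceeded 0.1, the numbers were not taken to pair the libraries. The epithelial markers nevertheless split by replicate number in all 3 subsets, and whether same-numbered libraries share a source was not tested.

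Of 43 calls of single members, 39 held in all 25 fits, and none changed sign. The others were Cyp51, Tm7sf2, Mylip between CD22+ and α4β7− CD22−, and Soat1 in α4β7− CD22− eosinophils. Of 80 results that were not called, 17 had an estimate of the other sign in at least 1 fit, where the estimates as reported lay between −0.06 and 0.33. In at least 1 fit 7 were called, namely Lbr in both comparisons with α4β7+ eosinophils and Mylip in α4β7− CD22− with the adjusted p alone, Cyp51 in α4β7− CD22−, Srebf1 in CD22+, and Acaca in both. Setting totals equal without ribosomal protein genes moved the median of all genes to 0.09, 0.16, and 0.06 in the 3 comparisons, and the genes called in CD22+ against α4β7+ eosinophils from 854 higher and 975 lower to 1448 higher and 701 lower.

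Low members (Nr1h3, Scd1, and Me1) vary too much at this depth for changes of less than about their printed intervals to be seen. Summed markers of Paneth cells lay between 85.9 and 1601, T cells between 471 and 1205, macrophages between 1593 and 3089, and fibroblasts and endothelium between 743 and 2897 over all libraries. Called markers were Defa30 (Paneth), higher in CD22+, Cd3e and Lck (T cells), lower in α4β7− CD22−, and S100a9 and Mmp8 (neutrophils), lower in CD22+ than in α4β7+ eosinophils. At an unadjusted p under 0.05, 5 of 6 T cell genes were lower in α4β7− CD22− than in α4β7+ eosinophils, and in CD22+ against α4β7− CD22− eosinophils 4 Paneth and 2 T cell genes were higher and 2 neutrophil genes lower. In CD22+ against α4β7+ eosinophils 2 Paneth genes were higher. None of the B and plasma, macrophage, mast, fibroblast, and endothelial genes was called with limma, and each of these lists had at most 1 gene at an unadjusted p under 0.05 in any of the 3 comparisons.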
